A study of Arabidopsis thaliana with 21 samples.

Results

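Arabidopsis mesophyll protoplasts that transiently expressed the transcription factor NLP7 fused to GFP were compared with protoplasts that expressed GFP alone, in 3 libraries each. The genes described are all 1985 of the table the authors deposited for this contrast, out of 2945 different genes in the 4 tables of the series. That table holds only genes the authors selected for a difference between these same libraries, so the difference itself is given as a description. The protoplasts came from leaves of wild-type Col-0 plants grown on soil for 4 weeks, in days of 8 h light and 16 h dark. One label field names Landsberg erecta seedlings for these libraries, and the genotype field was followed. All groups keep their own NLP7 gene, and the promoter of the plasmids is not given in the sources used here. A further group of 3 libraries, used for 1 comparison, expressed NLP7-GFP together with Myc-tagged KIN10. Roots of Landsberg erecta (Ler) seedlings serve for another comparison: 7 days on 5 mM nitrate were followed by 2 days free of nitrogen and by 1 h in 5 mM KCl or KNO3, with 3 libraries per treatment.

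NLP7 belongs to the NIN-like proteins, RWP-RK transcription factors that act as central regulators of the nitrate response in plants. Nitrate keeps NLP7 in the nucleus, where it binds nitrate-responsive elements in promoters of genes for nitrate uptake and reduction and of further regulators, and NLP7 itself has been described as a nitrate sensor. SnRK1, of which KIN10 is a catalytic subunit, is a kinase that acts under low energy. Leaf mesophyll is the photosynthetic tissue of the leaf and reduces nitrate with electrons from ferredoxin and NADH.

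Levels are FPKM, fragments scaled to transcript length and to the mapped total, as the authors deposited them. Depth, recovered from counts and FPKM, was 16190094 to 19096807 mapped fragments per GFP or NLP7 library. The listed genes took 2.00 to 2.05% of the fragments in the GFP libraries and 7.06 to 8.59% in the NLP7 libraries. No library was a copy of another, with a chi-square of 3.27 to 23.8 per degree of freedom between libraries of one group. The labels call the 3 libraries of a group biological replicates. Listed CAB1, a chlorophyll-binding protein of the antenna, stood at 365 to 412 FPKM with GFP, and the 4 listed mesophyll markers of 17 were present in every library. Of 15 markers of other leaf cell types GL2 and XCP1 were listed (13.3%, against 7.23% of all genes), both at 0 counts with GFP. The levels of markers that were not listed are unknown here, so the purity of the protoplasts cannot be read from these counts.

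The response went almost wholly upward. Of the 1985 genes 1846 were higher with NLP7 and 139 were lower. The authors' deposited table gives an adjusted p under 0.05 for 1763 of them, or 88.8%, of which 1672 were higher and 91 lower. For NLP7 against GFP, "rose" and "fell" are used below only for genes in that count, and other listed genes are given by their values. For the libraries with KIN10 the 2 words stand for edgeR calls against NLP7 alone. For roots they stand for the direction the authors list there. At least 2-fold difference in mean FPKM with no overlap between the libraries held for 1930 genes, 97.2%, of which 1828 were higher and 102 lower. An edgeR quasi-likelihood test over the table called all 1654 genes that passed its filter on low counts, 100%, with 1543 higher and 111 lower. These shares restate the selection and describe nothing further about the genes. No overlap alone held for 1965 genes, 99.0%, so where it is given below for single genes it restates the selection as well.

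The split depends on scaling to all mapped fragments. When the libraries were scaled on the listed genes alone, the edgeR median log2 difference moved from 1.90 to 0.15 with TMM over 1654 genes. With their summed counts it was -0.14, over the 1576 genes that then passed the filter. In DESeq2, over all 1985 genes, it moved from 2.11 with the recovered library sizes to 0.41 with its own size factors. The calls then split into 662 higher and 439 lower with TMM, 549 and 581 with summed counts, and 706 and 360 with DESeq2. Such scaling sets the typical listed gene near 0 by construction. With TMM, 650 of the 1543 tested genes that the authors list as higher had a negative log2 difference, and none of the 111 listed as lower had a positive one. Below, a gene is said to turn where its direction did so under all 3 of these scalings.

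Most of the genes that were higher were scarce with GFP. Their median level was 0.432 FPKM with GFP and 3.10 FPKM with NLP7. No fragment was counted in any of the 3 GFP libraries for 292 of them, and of the rest 379 were at least 10-fold higher with NLP7. The lower genes had a median of 2.64 FPKM with GFP and 1.05 FPKM with NLP7, and 9 of them were at least 10-fold lower, 5 of these at 0 counts with NLP7.

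**Figure D1:**
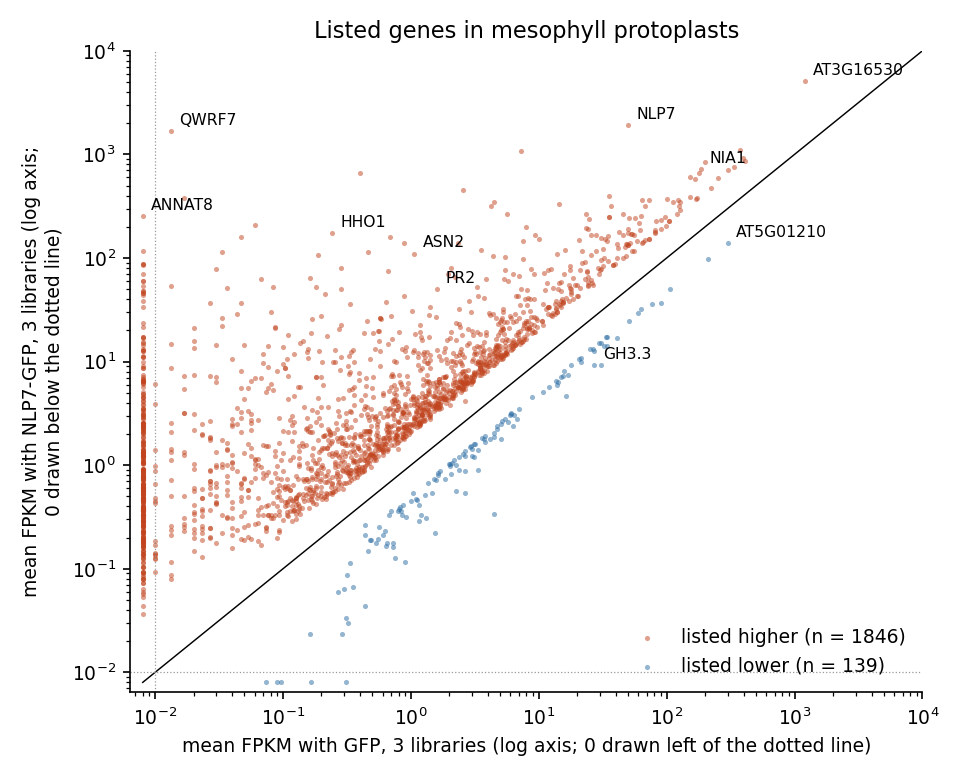
Mean FPKM of each listed gene with GFP (x) and with NLP7-GFP (y), 3 libraries each, on log axes, with the line of equal levels; 0 is drawn beyond the dotted lines. The 1846 genes above the line include 292 at 0 with GFP, and 139 lie below it. With TMM on the listed genes, 650 of 1543 tested higher genes would fall below the line.

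NLP7 transcript (AT4G24020, chr4:12479528-12484049, plus strand) checked the transfection. It was at 52.7, 53.7 and 43.2 FPKM with GFP and at 2261, 1536 and 1950 FPKM with NLP7, a 38.4-fold ± 4.93 (SE, n = 3) difference with no overlap. Fragments from the plasmid and from the plant's gene cannot be told apart in these counts. Of the other 11 genes in a list of NLP factors and of the calcium-dependent kinases CPK10, CPK30 and CPK32, which phosphorylate NLP7, only NLP3 was listed. It rose from 0.0433 ± 0.0321 to 0.870 ± 0.415 FPKM (SD, n = 3).

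Counts over gene lists stand beside the share of all 27444 protein-coding genes in the table, which was 6.73% higher, 0.506% lower and 7.23% in all. The nitrate uptake and assimilation genes came next. NRT3.1, the partner protein that high-affinity NRT2 transporters need, was at 349, 343 and 434 FPKM with GFP and at 1161, 1018 and 1133 FPKM with NLP7. The groups did not overlap, and the mean was 2.94-fold ± 0.258 (SE) higher, and this direction turned when scaled on the listed genes. CLCB, a chloride channel family member, rose 25.5-fold ± 12.8 to 2.98 ± 0.356 FPKM, from 0.110, 0.220 and 0.02 FPKM with GFP. Without the second GFP library its fold was 45.8. NRT2.1, the main high-affinity nitrate transporter of roots, was at 0 in all GFP libraries and reached 0.540, 0.340 and 0.480 FPKM, at least 14.6-fold higher when GFP is set to 3 counts over the group. NPF7.3 and SLAH1 were listed at up to 0.110 and 0.170 FPKM with an adjusted p of 0.135 each in the authors' deposited table. In all 5 of 24 transport genes were listed, all higher (20.8%, against 6.73% of all genes), and 3 of them rose. Of all listed genes 93.0% were higher.

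NIA1 encodes 1 of the nitrate reductases and NIR1 the nitrite reductase, the successive steps from nitrate to ammonium. NIA1 was at 224, 170 and 161 FPKM with GFP and at 772, 715 and 692 FPKM with NLP7. NIR1 was at 217, 190 and 189 FPKM with GFP and at 853, 779 and 905 FPKM with NLP7. Neither overlapped between groups, as held for 99.0% of all listed genes, and the rises were 3.93-fold ± 0.435 and 4.26-fold ± 0.268 (SE, n = 3). Asparagine synthetase ASN2 went from 0.870, 0.850 and 1.45 FPKM to 113, 103 and 114 FPKM, a 104-fold ± 19.7 rise. The plastid glutamine synthetase GLN2 rose 2.70-fold ± 0.124 and ASN1 rose 2.20-fold ± 0.158, and both turned direction when scaled on the listed genes. Of 20 genes for reduction and assimilation these 5 rose (against 6.73% of all genes listed higher) and none fell, with a median log2 change of 1.93 in the authors' deposited table against 2.07 over all listed genes.

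Reduction of nitrite in non-green plastids draws on NADPH from the oxidative pentose phosphate pathway, passed on by root-type ferredoxin-NADP reductases (RFNR) and ferredoxin FD3. In this list 8 of 12 genes rose (66.7%, against 6.73% of all genes listed higher) and none fell. Glucose-6-phosphate dehydrogenase G6PD3 was at 2.03, 1.96 and 2.18 FPKM with GFP and at 88.8, 72.8 and 80.0 FPKM with NLP7. RFNR2 was at 0.710, 0.450 and 0.520 FPKM with GFP and at 22.0, 16.6 and 20.8 FPKM with NLP7. Neither overlapped between the groups, at 39.2-fold ± 2.57 and 35.4-fold ± 5.72 (SE). G6PD1 rose 7.81-fold ± 0.949 and G6PD2 3.08-fold ± 0.186. The remaining PGD1, PGD3, RFNR1 and FD3 rose 2.42- to 3.12-fold, and 5 of the 8 genes, with the median of the list, turned when scaled on the listed genes. Of the enzymes that supply carbon skeletons, 3 of 9 (33.3%) rose: phosphoenolpyruvate carboxylase PPC2 by 5.03-fold ± 0.313, its kinase PPCK1 by 2.44-fold ± 0.123 and the cytosolic isocitrate dehydrogenase CICDH by 2.27-fold ± 0.102. PPCK1, CICDH and the median of these 3 turned under that scaling.

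**Figure D2:**
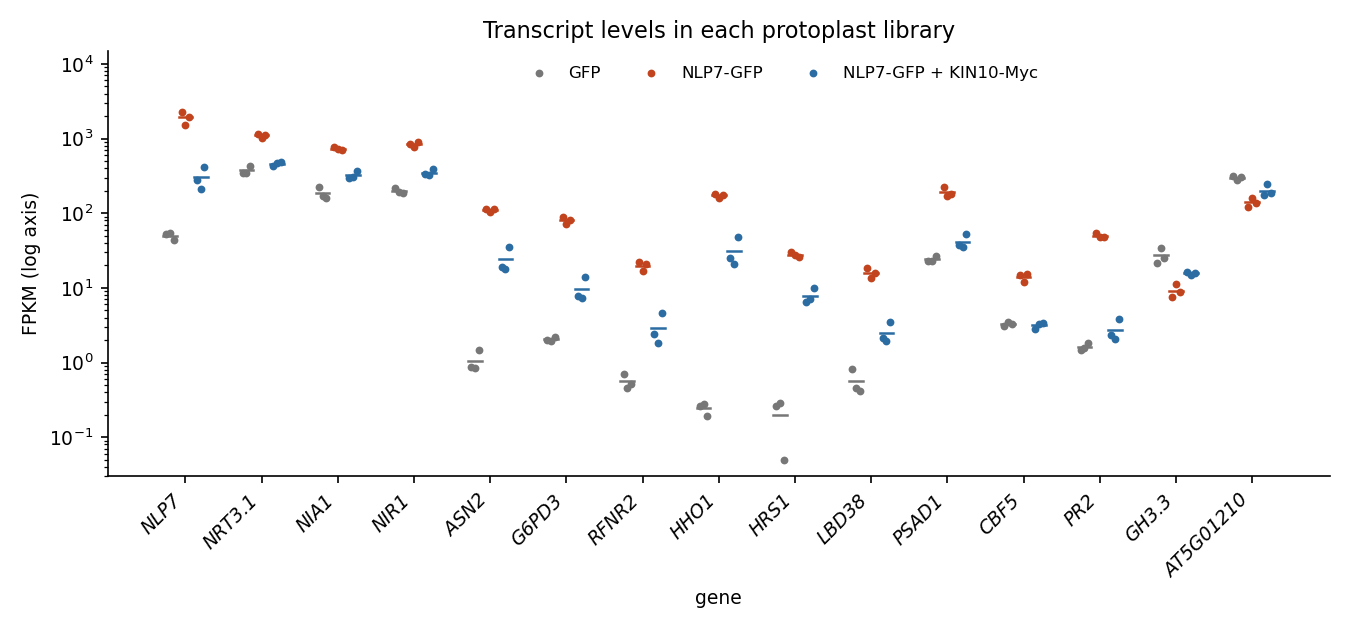
FPKM (log axis) of 15 genes in each protoplast library, 3 libraries per group, with a bar at the mean; from NLP7 to PR2 the genes were higher with NLP7-GFP, and GH3.3 and AT5G01210 were lower. HHO1 stood at 0.190 to 0.280 FPKM with GFP and at 159 to 182 FPKM with NLP7-GFP; NRT3.1 turned direction when scaled on the listed genes.

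Regulators of the nitrate response held some of the widest changes. HHO1, a GARP-type repressor of nitrate transporter and phosphate starvation genes, was at 0.260, 0.280 and 0.190 FPKM with GFP and at 182, 159 and 178 FPKM with NLP7, 711-fold ± 85.2 apart. Its relative HRS1 was at 0.260, 0.290 and 0.05 FPKM and then at 29.9, 27.4 and 26.2 FPKM, 139-fold ± 52.8 apart. LBD38, a LOB-domain repressor of nitrogen genes, rose 28.1-fold ± 7.00 to 15.9 ± 2.44 FPKM (SD), and NRG2, which acts in nitrate signalling with NLP7, rose 7.10-fold ± 1.15. The list has 27 genes, of which 10 rose (37.0%, against 6.73% of all genes listed higher) and none fell. CDF1, NAC4, BT1, CIPK8, CRF4 and LBD37 made up the rest, from 2.09-fold for LBD37 to 6.52-fold for CDF1. When scaled on the listed genes 7 of the 10 stayed higher and 3 were lower.

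Cytokinins, hormones that roots make in response to nitrate, had 8 of 25 genes risen (32.0%, against 6.73% of all genes listed higher) and none fallen, with a median that turned when scaled on the listed genes. IPT3, the nitrate-responsive enzyme of cytokinin synthesis, was at 0 with GFP and at 3.02, 3.41 and 3.34 FPKM with NLP7, at least 78.3-fold higher. Among enzymes of cytokinin breakdown, CKX4 went from 53.9 ± 2.02 to 170 ± 24.4 FPKM, a rise that turned when scaled on the listed genes. CKX6 had 1 fragment in all GFP libraries together and 204 with NLP7, a ratio of 190 per mapped fragment with an exact 95% counting interval of 33.7 to 7544. CRF5 and CRF6, cytokinin response factors, rose 2.93-fold ± 0.295 and 2.91-fold ± 0.187, LOG7 and the response regulator ARR7 rose 2.79- and 2.21-fold, and the exporter ABCG14 reached 0.140 FPKM at most. CRF5, CRF6, LOG7 and ARR7 turned when scaled on the listed genes. Of the 7 cytokinin genes tested with TMM on the listed genes, 2 were higher and 5 lower. None of the 8 CC-type glutaredoxins on the list, small genes known to respond to nitrate and cytokinin, was listed here. For a list of this size 0 is near the 7.23% of all genes, and the list does not hold every glutaredoxin.

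Ribosome biogenesis had the most listed members. Of its 29 genes 17 rose (58.6%, against 6.73% of all genes listed higher) and none fell. Their median log2 change in the authors' deposited table was 1.45, below the 2.07 over all listed genes. This median turned when scaled on the listed genes. CBF5, the pseudouridine synthase of box H/ACA particles, was at 3.07, 3.47 and 3.29 FPKM with GFP and at 14.8, 11.9 and 15.3 FPKM with NLP7. NOP58-2 was at 1.84, 2.32 and 2.02 FPKM and then at 8.96, 8.25 and 9.11 FPKM. Both changed by over 4-fold without overlap, at 4.28-fold ± 0.355 and 4.26-fold ± 0.317 (SE). NOP58-1, the other copy of this box C/D core protein, rose 3.57-fold ± 0.241, and NOB1, an endonuclease of rRNA maturation, rose 3.81-fold ± 0.699. The other 13, among them nucleolin NUC-L1, fibrillarin FIB2 and NOP56, rose 2.09- to 3.10-fold. Under TMM on the listed genes 4 of the 17 were higher and 13 lower. Fragments of near-identical gene copies such as NOP58-1 and NOP58-2 may be split uncertainly by the counting.

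Promoters of ribosome biogenesis genes in plants are known to carry telo boxes and site II elements. The window searched was 250 bases before to 50 after the annotated start, in the RefSeq TAIR10.1 assembly, on both strands. The telo box AAACCCTA was found in 12 of the 17 risen genes (70.6%), in 4 of the 12 genes of the list that were not listed here (33.3%), in 9.05% of all higher genes and in 6.22% of all 27444 protein-coding genes. The site II letters TGGGCC were found in 10 of the 17 (58.8%), in 10 of the 12 (83.3%) and in 15.5% of all genes. TGGGCT was in 5 of the 17 (29.4%), in 4 of the 12 (33.3%) and in 14.2% of all genes. In WDR12 a pair of TGGGCC matches on opposite strands overlap. The 4 risen genes with at least 3 matches in the 130 bases before the start are shown to let the arrangement be seen, with telo boxes and site II letters in capitals.
NOP56, chr1:20986953-20987082, minus strand: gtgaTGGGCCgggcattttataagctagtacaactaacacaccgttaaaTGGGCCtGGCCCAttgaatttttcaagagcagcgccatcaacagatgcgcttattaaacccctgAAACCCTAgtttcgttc
NOP58-1, chr5:9540731-9540860, plus strand: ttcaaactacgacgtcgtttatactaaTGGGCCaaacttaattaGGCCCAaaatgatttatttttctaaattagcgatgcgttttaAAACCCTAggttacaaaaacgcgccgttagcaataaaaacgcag
BRX1-2, chr1:19711049-19711178, plus strand: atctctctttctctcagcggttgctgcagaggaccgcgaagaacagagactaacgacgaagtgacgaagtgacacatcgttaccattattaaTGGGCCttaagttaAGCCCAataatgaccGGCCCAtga
WDR12, chr5:5062145-5062274, minus strand: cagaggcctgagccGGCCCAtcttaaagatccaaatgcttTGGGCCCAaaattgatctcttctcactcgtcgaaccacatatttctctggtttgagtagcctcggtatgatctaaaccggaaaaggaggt
In these, site II letters lay upstream, and the telo box of NOP56 and NOP58-1 lay closer to the start. Many telo boxes of the 17 genes lay just after the start and are not printed.

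**Figure D3:**
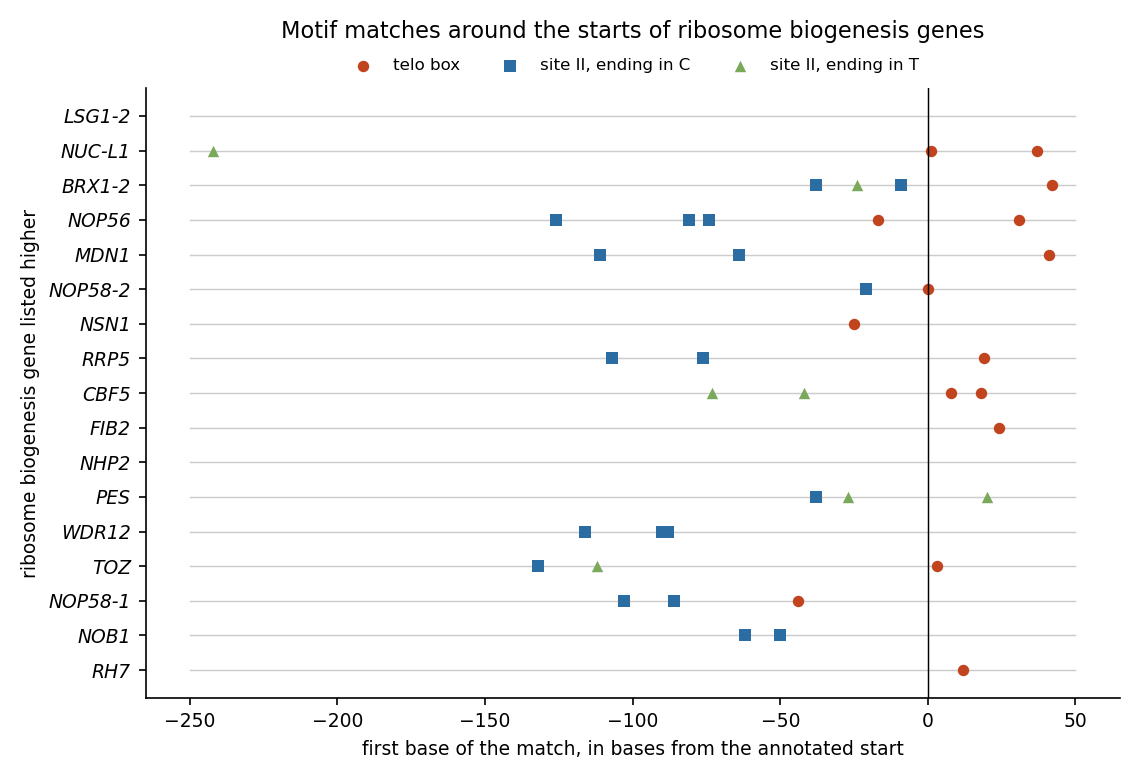
Position of each telo box (circles) and site II match (squares for TGGGCC, triangles for TGGGCT) from 250 bases before to 50 after the annotated start (0) of the 17 ribosome biogenesis genes listed higher. Site II matches lie before the start in all but 1 case, and telo boxes lie from 44 bases before it to 42 after it; under TMM on the listed genes 13 of these 17 genes were lower.

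The core of the nitrate-responsive element, written here as CTT and AAG with a gap of 10 bases, was in 10.4% of the promoters of the higher genes, in 9.35% of the lower ones and in 9.72% of all. The letters GACCCTT, as in the 5′ part of that element, were in 2.44% of the higher, in none of the 139 lower and in 1.36% of all genes. Of the 28 listed genes of the nitrate transport, assimilation, pentose phosphate and regulator lists, 2 held the core and none held GACCCTT in this window. Of the 15 genes with the largest fold or the highest level from 0 with GFP, 4 held the core or GACCCTT (26.7%, against 10.9% of all genes and 12.6% of the higher ones). Their last 170 bases before the start follow, because these genes went from nearly no transcript to a clear one, with the matched letters in capitals.
AT1G72220, chr1:27185884-27186053, minus strand: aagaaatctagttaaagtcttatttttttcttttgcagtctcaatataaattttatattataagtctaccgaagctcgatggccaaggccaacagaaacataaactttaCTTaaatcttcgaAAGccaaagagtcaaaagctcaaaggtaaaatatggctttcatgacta
AT4G34760, chr4:16583076-16583245, minus strand: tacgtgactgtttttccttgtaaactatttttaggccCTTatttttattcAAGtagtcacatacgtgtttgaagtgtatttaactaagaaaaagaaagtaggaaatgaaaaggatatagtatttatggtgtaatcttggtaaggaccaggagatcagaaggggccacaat
LAP5, chr4:16608034-16608203, plus strand: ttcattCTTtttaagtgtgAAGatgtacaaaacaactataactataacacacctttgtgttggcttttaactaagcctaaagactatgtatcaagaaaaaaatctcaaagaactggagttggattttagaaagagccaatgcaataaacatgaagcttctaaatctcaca
AT5G01740, chr5:280504-280673, plus strand: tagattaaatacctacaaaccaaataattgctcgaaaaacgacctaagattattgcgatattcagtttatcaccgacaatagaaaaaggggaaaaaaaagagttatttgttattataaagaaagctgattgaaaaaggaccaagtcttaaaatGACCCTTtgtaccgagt
The core is palindromic, so both strands give the same match. LAP5 is a chalcone synthase-like enzyme of pollen wall formation, AT4G34760 a SAUR gene, AT1G72220 a RING protein gene and AT5G01740 encodes an NTF2-like protein.

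QWRF7 (AT4G25190, chr4:12914183-12916156, minus strand), a QWRF-motif protein gene, had the largest ratio of mean FPKM among listed genes with any GFP fragment. It was at 0.04, 0 and 0 FPKM with GFP and at 1887, 1467 and 1680 FPKM with NLP7. That is 1 fragment against 117074, a ratio of 109087 per mapped fragment with an exact 95% counting interval of 19579 to 4308734. Its neighbour HSP23.6, a mitochondrial small heat shock protein gene that starts on the plus strand at 12916926, rose 36.5-fold ± 10.3, from 0.340 ± 0.156 to 12.4 ± 2.08 FPKM. It was the only listed gene of 16 for heat shock and the unfolded protein response (6.25%, near the 7.23% of all genes). AT2G48080, an oxidoreductase gene, had 1 fragment with GFP and 28229 with NLP7, which put it at 376 ± 44.4 FPKM.

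The other genes with the largest folds were the trehalose-6-phosphate phosphatase TPPJ, the LEA protein gene M10, the arabinogalactan protein AGP3, the cupredoxin gene AT1G22480, AT4G34760, IGMT3, LAP5 and AT1G72220. With NLP7 their means ran from 36.8 FPKM for AT1G72220 to 667 FPKM for IGMT3. IGMT3, an indole glucosinolate methyltransferase, lies in a cluster of near-identical copies, so its fragments may be assigned uncertainly. It stood at 0.397 ± 0.156 FPKM with GFP, and the listed copy IGMT2 went from 15.5, 15.0 and 16.2 to 41.2, 33.5 and 36.8 FPKM. The other 7 genes had at most 2 fragments in the GFP libraries together, so their folds carry wide counting intervals, from 423 to 12647 for LAP5 and from 760 to 167307 for TPPJ.

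Among the 292 genes at 0 with GFP, the annexin ANNAT8 reached the highest level, 277, 225 and 259 FPKM, at least 3224-fold above 3 counts over the GFP group. GSTF14, a glutathione transferase, reached 118 ± 15.9 FPKM, AT5G01740 88.1 ± 16.1, the methyl-CpG-binding domain gene MBD3 87.6 ± 9.35 and the desaturase gene AT1G06120 86.1 ± 10.5 FPKM. At the other end of the range, AT3G16530, a legume lectin gene, was the most abundant listed transcript. It was at 1170, 1145 and 1275 FPKM with GFP and at 5846, 4676 and 4813 FPKM with NLP7, 4.27-fold ± 0.340 higher. AT5G65980, an auxin efflux carrier family gene, went from 10.9, 4.04 and 6.95 to 1220, 945 and 1058 FPKM, and with AT3G16530, NLP7, QWRF7 and NRT3.1 made the 5 largest differences in FPKM.

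Replication genes rose from a very low level. The group was chosen after its values were seen. So were the photosystem group and all the gene families that follow, from SAUR to glutathione transferase genes. All 6 subunits of the MCM helicase, which opens DNA at replication origins, rose, against 6.73% of all genes listed higher. Their changes ran from 3.61 to 6.54 on the log2 scale in the authors' deposited table. MCM2 was at 0.02, 0.04 and 0.06 FPKM with GFP and at 3.05, 2.56 and 2.67 FPKM with NLP7. MCM3 was at 0, 0.08 and 0.05 FPKM and then at 3.81, 3.35 and 3.57 FPKM. At these GFP levels folds rest on single fragments, and that of MCM3 was 82.5 with all libraries and 143 without the second GFP library. Of the origin recognition complex 3 of 7 subunits rose (42.9%, against the same 6.73%), ORC2, ORC3 and ORC4. The primase subunit POLA3 rose to 1.87 ± 0.0764 FPKM. The E2F-related DEL3 rose 15.5-fold ± 2.34 to 13.3 ± 2.19 FPKM and DPB, the dimer partner of E2F factors, 4.93-fold ± 0.691 to 40.8 ± 6.75 FPKM. BUBR1, a spindle checkpoint kinase, was at 0 with GFP and at 47.0, 29.0 and 38.5 FPKM with NLP7. The authors' table annotates 24 listed genes to DNA replication, and all were higher, as were 93.0% of all listed genes. It annotates 23 listed genes to the yeast cell cycle, 21 of them higher, and 15 to yeast meiosis, all higher. Of the 6 genes in the cell division list MCM2 alone was listed (16.7%, against 7.23% of all genes). Cyclins CYCB1;1 and CYCD3;1, CDKB2;1, KNOLLE and CDC6 were not in the table.

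Most of the nuclear genes for photosystem I subunits were also higher. Of 12 nuclear genes of this group 9 rose and none fell. PSAD1, the ferredoxin-docking subunit, was at 22.9, 22.7 and 26.8 FPKM with GFP and at 222, 170 and 180 FPKM with NLP7, 7.90-fold ± 0.795 apart. PSAH2 went from 14.2, 14.6 and 19.5 to 135, 113 and 111 FPKM, 7.43-fold ± 0.925. The other 7 rose 2.20- to 6.30-fold, and on the listed genes alone 4 of the 9 were lower with TMM and 6 with summed counts, where the median was -0.17. Of the 18 light-harvesting antenna genes in the reference 7 were listed, all higher (38.9%, against the same 6.73%). Of these LHCB6 rose 5.37-fold ± 0.443. Of the 17 mesophyll markers PSAD1, PSBP1, RBCS2B and CAB1 rose (23.5%, against the same 6.73%). CAB1, at 2.37-fold ± 0.106, turned direction when scaled on the listed genes. Members of the RBCS and CAB families are near-identical, so their fragments may be split uncertainly.

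**Figure D4:**
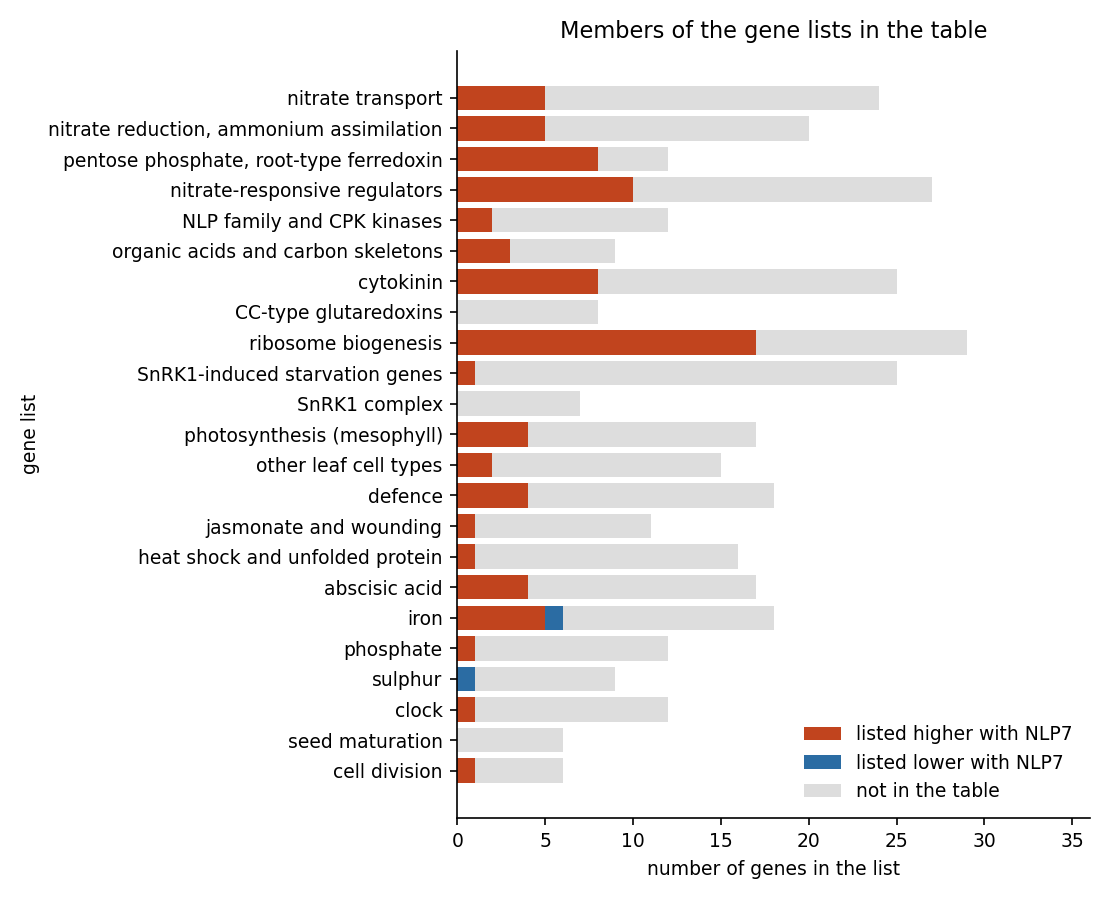
Number of genes of each list that were listed higher with NLP7 (red), listed lower (blue) or were not in the table (grey). The ribosome biogenesis list has the most listed members, 17 of 29, and the pentose phosphate and root-type ferredoxin list the highest share, 8 of 12; under TMM on the listed genes the medians of both were below 0.

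Auxin-related SAUR genes, which promote cell expansion, were higher in 14 of 78 cases (17.9%, against 6.73% of all protein-coding genes) and lower in 1. Within 1 run of 7 SAUR genes on chr4:16577180-16599568, from AT4G34750 to AT4G34810, 6 were higher. In it AT4G34770 and AT4G34800 were at 0 with GFP and reached 48.5 ± 6.46 and 45.7 ± 7.17 FPKM, and AT4G34760 reached 79.0 ± 8.28 FPKM. Arabinogalactan protein genes, which encode cell wall proteoglycans, were higher in 9 of 57 cases, with AT4G16980 going from 4.26 ± 0.512 to 317 ± 92.0 FPKM. Annexins were higher in 3 of 8 cases (37.5%) and nitrile specifier proteins, which act on glucosinolate products, in 4 of 5 (80.0%). Of the latter, NSP3, NSP1 and NSP4 are neighbours on chromosome 3. Helicases (25 of 128, 19.5%), aquaporins and other intrinsic proteins (5 of 31, 16.1%), lectins (20 of 157, 12.7%) and pentatricopeptide repeat proteins (30 of 261, 11.5%) were also above 6.73%. F-box protein genes were higher in 14 of 652 cases (2.15%) and lipid transfer protein genes in 2 of 139 (1.44%). Also below 6.73% were cytochrome P450 (13 of 218, 5.96%), RING (22 of 507, 4.34%) and glutathione transferase genes (1 of 45, 2.22%).

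Genes that were higher often lay beside each other. A neighbouring protein-coding gene was also higher for 525 of the 1846, or 28.4%, while 11.7% of the other protein-coding genes lay beside a higher gene. Leaving out neighbours with the same product name, these were 26.1 and 11.2%. Only identical names were left out, so related neighbours with differing names stay in these shares. Of neighbouring pairs with at least 1 higher gene, both were higher in 10.4% of pairs that start head to head, 8.90% of pairs on the same strand and 5.79% of pairs that end tail to tail. The longest run was NSP3, NSP1, NSP4, PBP1 and JAL31 on chr3:5562400-5583258, where NSP1 rose 12.3-fold ± 2.08. Strand use in counting is not given in the sources used here, so fragments of overlapping neighbours cannot be told apart.

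In the iron list 5 of 18 genes were listed higher (27.8%, against 6.73% of all genes) and 1 lower. Nicotianamine synthases make the metal chelator that moves iron in the plant. NAS2 had 1 fragment in the GFP libraries and reached 25.4, 18.4 and 18.8 FPKM with NLP7. NAS1 rose 21.8-fold ± 8.26 (33.5-fold without the first GFP library), NAS3 5.06-fold ± 0.752 and the transporter OPT3 9.32-fold ± 2.75, NAS4 was at 0.137 ± 0.0115 FPKM from 0 with an adjusted p of 0.0935 in the authors' deposited table, and the peptide gene IMA3 fell 2.42-fold ± 0.453. Phosphate exporter PHO1 rose 13.1-fold ± 1.39 as the only listed gene of 12 for phosphate (8.33%, near the 7.23% of all genes). GGCT2;1, a gene of glutathione breakdown, fell 2.26-fold ± 0.130 as the only listed gene of 9 for sulphur.

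Defence genes rose in 4 of 18 cases (22.2%, against 6.73% of all genes listed higher). PR2, a glucanase induced by salicylic acid, was at 1.45, 1.57 and 1.82 FPKM with GFP and at 53.9, 47.3 and 48.0 FPKM with NLP7, 30.8-fold ± 2.46 apart. WRKY70, the salicylic acid synthesis gene ICS1 and the oxidase RBOHD rose 2.17- to 2.20-fold, within the range that turned when scaled on the listed genes. For abscisic acid 4 of 17 rose (23.5%, against the same 6.73%), with RD29A going from 0.187 ± 0.124 to 4.41 ± 0.482 FPKM, RD29B at 15.7-fold ± 9.75 (33.2-fold without the second GFP library), ABI5 at 4.38-fold ± 1.03 and ABF3 at 2.53-fold ± 0.181, of which ABF3 turned under that scaling. LOX2 was the only listed jasmonate gene of 11 and PRR9 the only listed clock gene of 12, shares of 9.09% and 8.33% that are near the 7.23% of all genes, and both turned under that scaling. GL2, which marks trichomes and non-hair root cells, was at 0 with GFP and at 1.66, 1.49 and 1.82 FPKM with NLP7. XCP1, a xylem protease, was at 0.170 ± 0.0755 FPKM from 0 with an adjusted p of 0.0712 in the authors' deposited table. Of 25 genes that SnRK1 is known to induce in starvation ASN1 was listed (4.00%, against 7.23% of all genes). None of 7 SnRK1 subunits and none of 6 seed maturation genes was listed, and for lists of this size 0 is near that share.

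The 139 lower genes had a median log2 change of -1.21 in the authors' deposited table. The largest falls among those at 5 FPKM or more were ORS1, an organ size gene, at 15.7, 16.1 and 16.8 FPKM with GFP and 4.48, 5.57 and 3.86 FPKM with NLP7, 3.49-fold ± 0.383 lower. DXPS1, a gene of the plastid isoprenoid pathway, went from 35.6, 22.6 and 34.5 to 7.83, 9.46 and 10.8 FPKM. GH3.3, which conjugates auxin to amino acids, went from 21.6, 34.5 and 25.5 to 7.45, 11.4 and 8.80 FPKM. No overlap between the groups was a condition for naming these 3, and 99.0% of all listed genes met it. AT5G63500, AT4G16710, AT2G20500, the homeobox gene HB-12, the F-box gene FBS2, AT4G30670 and RLP40 fell 2.33- to 2.82-fold. In FPKM the largest drops were AT5G01210, an acyltransferase family gene, from 301 ± 17.0 to 140 ± 20.4, and glutaredoxin GRXS13, from 211 ± 26.4 to 97.4 ± 2.97. The peptide gene PSY1, AT2G20500 and AT1G53870 came next. The list of 8 glutaredoxins above holds only part of the glutaredoxins and leaves out GRXS13.

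The levels of the 1846 listed higher genes differed between the 3 NLP7 libraries in the order of their NLP7 transcript. The library at 2261 FPKM held the highest value of the 3 for 1229 of the 1846 genes. The library at 1536 FPKM held the lowest for 1218 of them. The part of the NLP7 amount in this was not tested, and 3 libraries give no correlation.

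The libraries with NLP7 and KIN10 let the listed genes be read in samples that did not enter the selection. Their NLP7 transcript was at 280, 212 and 417 FPKM, 6.32-fold lower than with NLP7 alone. KIN10 and this lower amount of NLP7 transcript cannot be told apart in what follows, and since the genes were listed on the same NLP7 libraries, a lower value is favoured. By edgeR over the table, 1487 of 1653 genes tested were lower (90.0%) and 43 higher (2.60%) than with NLP7 alone, at an adjusted p under 0.05. Among genes higher with NLP7 1487 of 1556 fell, with a median log2 difference of -1.61, and 2 rose. Among genes lower with NLP7 none of 97 fell and 41 rose. When scaled on the listed genes the calls split into 479 higher and 542 lower with TMM, 424 and 528 with summed counts, and 413 and 554 with DESeq2.

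The higher genes kept a median of 30.2% of their level with NLP7, and 81.4% of them had a mean between those of GFP and NLP7. The NLP7 transcript itself kept 15.8%. G6PD3 fell to 7.67, 7.26 and 13.9 FPKM, a log2 difference of -3.07 ± 0.25 (SE) with an edgeR adjusted p of 5.50e-07. PR2 fell to 2.33, 2.05 and 3.85 FPKM, near its GFP level, with a log2 difference of -4.21 ± 0.25 and an edgeR adjusted p of 1.21e-07. GL2 was at 0 counts in all 3 of these libraries. NIA1 fell by 1.16 ± 0.13 and NIR1 fell by 1.28 ± 0.13 on the log2 scale (SE), with edgeR adjusted p of 4.43e-06 and 2.31e-06. RBOHD stayed at 92.8, 87.3 and 90.6 FPKM, and its edgeR adjusted p of 0.109 missed the threshold. All 17 ribosome biogenesis genes, all 10 regulators and all 8 pentose phosphate and root-type ferredoxin genes fell, as did 95.6% of all tested higher genes. The 2 that rose were PRR9, at 3.91, 3.20 and 3.98 FPKM after 0.850, 1.13 and 1.30 with NLP7 alone (log2 difference 1.76 ± 0.23, edgeR adjusted p of 1.63e-05), and RBCS2B (0.70 ± 0.27, edgeR adjusted p of 0.0259). RBCS2B rested on unequal libraries of 290, 282 and 619 FPKM. The libraries at 417 and 212 FPKM of NLP7 transcript again held the highest value for 1117 and the lowest for 952 of the 1846 genes.

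Nitrate given to roots was compared next. Of the 1985 genes, 195 were also among the 770 listed for KNO3 against KCl in Ler roots, which is 9.82% of the protoplast table and 25.3% of the root table. The root table holds 2.81% of all protein-coding genes. In both 179 were higher and in both 5 were lower, 7 were higher here and lower in roots, and 4 were the reverse, so that 184 (94.4%) had the same sign. Of the listed genes 93.0% were higher here and 69.7% in roots. The shared genes were nearly all higher on each side, which alone favours the same sign, and the share was not tested.

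Counts by list stand beside the 9.82% of all listed genes that were in the root table. Of the listed genes of nitrate reduction and assimilation 4 of 5 rose in roots as well, of the pentose phosphate and root-type ferredoxin list 7 of 8, and of the regulators 8 of 10. None of the 17 ribosome biogenesis genes, the 4 mesophyll markers, the 4 defence or the 4 abscisic acid genes was in the root table, and for lists of this size 0 is near that share. NIR1 rose from 107 ± 7.41 to 1424 ± 20.5 FPKM in roots (SD, n = 3), 13.4-fold, against 4.26-fold here. HHO1 rose from 2.66 ± 1.17 to 36.8 ± 7.61 FPKM in roots, 13.8-fold, against 711-fold here. NRT2.1 stood at 969 ± 41.8 and 2759 ± 84.7 FPKM in roots, and under 1 FPKM in protoplasts. LOG7, which activates cytokinins, fell in roots from 58.9 ± 4.46 to 25.9 ± 3.64 FPKM and was 2.79-fold ± 0.959 higher here. Its difference here rested on 6, 4 and 11 fragments with GFP and 28, 18 and 16 with NLP7. This direction turned when scaled on the listed genes. G6PD3 rose from 30.3 ± 1.67 to 491 ± 23.7 FPKM in roots, 16.2-fold, against 39.2-fold here. Roots were of Ler and protoplasts of Col-0, and the tables were normalized separately, so these folds stand side by side without a test of their difference.

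**Figure D5:**
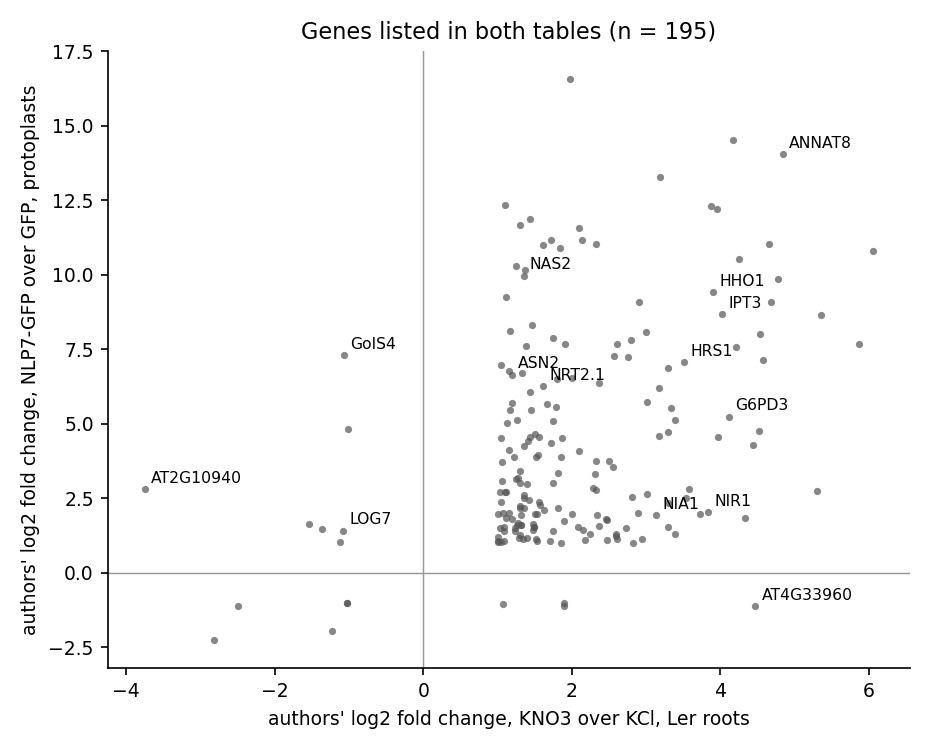
Log2 fold changes from the authors' deposited tables for the 195 genes in both, KNO3 over KCl in Ler roots (x) and NLP7-GFP over GFP in protoplasts (y). In the upper right are 179 genes, with 7 in the upper left, 4 in the lower right and 5 in the lower left.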

How the data were processed

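RNA sequencing of 9 Arabidopsis protoplast libraries and 6 root libraries was used. Groups follow the labels. Per the submitters' processing notes, HISAT, Bowtie2 and the TAIR10 build were used. The sources used here give no versions, strand use or way of counting. For testing, the study's description names NOISeq and the header of the deposited table names DESeq2.

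Per the file headers, the authors deposited FPKM, TPM and expected counts per library. The authors computed the deposited log2 fold change, p-value and adjusted p-value, which the header credits to DESeq2. The table holds selected genes only. Its 9 sample columns from outside the series were not used. In 2.52% of the genes the counts were not whole numbers, and they were rounded. All 1985 genes were found in RefSeq TAIR10.1, 1963 with the same start and end. Motifs and sequences come from there, as do symbols outside the gene lists, whose members carry common names.

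Library sizes were recovered from FPKM and counts of genes with at least 200 counts and 600 bases. Folds divide mean FPKM, with no pseudocount, and their SE is propagated from both SDs (n = 3). Where GFP was at 0, 3 counts over the group stood in for it. Such floors and the exact 95% intervals cover counting error only. The calls for NLP7 against GFP are the authors' own. For NLP7 with KIN10 against NLP7, and to describe the table, edgeR 4.0.16 quasi-likelihood tests were run, with R 4.3.3. They used the recovered sizes, filterByExpr and Benjamini-Hochberg adjustment over all genes tested, with a threshold of 0.05. The fits were tested on simulated data. With 3 against 3 libraries an exact permutation test cannot give a p below 0.10, and none was run. Alternatives used DESeq2 1.42.0, limma 3.58.1, other scalings, TPM, pseudocounts and single libraries left out.

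The table, the 23 gene lists with 353 different genes, and the tests were chosen with earlier results of these data known. Named genes are up to 4 listed members per list with the largest log2 change and at least 1 FPKM, the 10 largest folds each way at 5 FPKM or more with no overlap, NLP and CPK genes, the 5 highest from 0 with GFP, the 5 most abundant, and the 5 largest differences each way. Other genes named were chosen after their values were seen.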

Additional observations from a re-analysis of the deposited data

How the results depend on the processing

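The table holds selected genes, so every count below describes that selection. Scaling on the listed genes changed the number of edgeR calls most. For NLP7 against GFP they went from 1654 to 1101 with TMM and to 1130 with summed counts. DESeq2, which tested all 1985 genes, called 1978 with the recovered sizes and 1066 with its own size factors. For NLP7 with KIN10 against NLP7 they went from 1530 to 1021 with TMM and to 952 with summed counts, and DESeq2 called 1658 with the recovered sizes and 967 with its own. These scalings set the typical listed gene near 0 by construction. The other fits (no filter, limma on log2(FPKM + 1) or log2(FPKM + 0.1), all 3 protoplast groups) stayed within 1.5 times the counts given. Leaving out each library in turn gave 1667 to 1730 and 1460 to 1616 calls. Counting genes at least 2-fold apart with no overlap gave 1930 genes, 1048 when 1 was added to each mean FPKM, which shrinks the folds of scarce genes, and 1859 to 1944 without single libraries. The overlap with Ler roots was 195 genes, and 176 with an adjusted p under 0.05 in both tables. Replicate numbers did not pair the libraries: deviations of same-numbered GFP and NLP7 libraries correlated at 0.03, -0.10 and -0.06 over 754 genes. With a replicate block the calls were 1654 and 1515. Of 74 named genes with a log2 ratio, adding 1 to each mean FPKM moved 39 by more than 1 SD, and TPM moved none. Without a single library the 70 to 74 genes that kept a ratio moved by less than 1 SD. Of 118 list members and named genes with a fold, 19 moved by over 1.5 times without 1 GFP library, and 10 of these had no fold left, since their only GFP fragments lay in it. No direction of a named gene turned in these. A window of 1000 bases before the start, chosen after seeing the data, raised the risen ribosome biogenesis genes with the nitrate-responsive element core from 3 to 11 of 17 (64.7%), while the share of all genes went from 9.72 to 31.7%, and the nitrate lists went from 2 to 12 of 28 (42.9%). Depth limits genes with few fragments in the GFP libraries.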
